A study of Mus musculus with 12 samples.

Results

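The mRNA levels of 10 heat shock protein and chaperone genes, Hspa8, Hspa1a, Hspa1b, Hsph1, Hsp90aa1, Dnaja1, Dnajb1, Hspb1, Hspd1 and Hspe1, were compared between the livers of 6 LNA29-treated and 6 saline-treated mice. The genes were taken by symbol from a deposited table of 21705 genes, and all 10 were found there. All mice were C57BL/6J females of 10 to 12 weeks that were dosed through the tail vein, fasted for 18 h and sacrificed on day 7. LNA29 is a mixture of locked nucleic acids, chemically stabilised oligonucleotides that block the microRNAs miR-29a and miR-29b/c, given at 20 mg/kg each. Controls received saline and no oligonucleotide, so that an effect of carrying an LNA and an effect of losing miR-29 cannot be told apart.

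Heat shock proteins are chaperones that bind unfolded or partly folded proteins and help them to fold, to be transported or to be degraded. HSP70 proteins work in cycles of binding and release that are driven by J-domain proteins and nucleotide exchange factors, HSP90 acts later on a narrower set of clients, small heat shock proteins hold unfolded proteins in a form that can be refolded, and the Hspd1/Hspe1 chamber folds proteins imported into mitochondria. Some of these genes are expressed at all times, and others are switched on by heat or other protein damage through Hsf1, a transcription factor that binds heat shock elements, alternating repeats of GAA and TTC. The liver makes much protein for secretion and expresses many chaperones without stress.

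The microRNAs that LNA29 is directed against are shown with their seed (bases 2 to 8, in capitals), since a direct target carries the complement of the seed in its 3′ UTR. Mature sequences are from RefSeq (GRCm38.p6), where miR-29a and a copy of miR-29b lie on the minus strand at chr6:31062673-31062694 and chr6:31063025-31063047, and the other copy of miR-29b and miR-29c on the plus strand at chr1:195037091-195037113 and chr1:195037600-195037621.
mmu-miR-29a-3p: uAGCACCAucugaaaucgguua
mmu-miR-29b-3p: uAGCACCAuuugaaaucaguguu
mmu-miR-29c-3p: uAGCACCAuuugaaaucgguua
All 3 share the seed AGCACCA, whose complement reads TGGTGCT. In the longest annotated 3′ UTR (GENCODE release M21, GRCm38), none of the 10 chaperone genes held TGGTGCT, against 1876 of the 12144 tested genes with an annotated 3′ UTR (15.4%). The 3′ UTRs searched ran from 83 bases in Hspa8 to 4203 bases in Dnaja1. Only these letters were searched.

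The windows from 250 bases before to 50 bases after the gene start were searched for the letters of a heat shock element, the letters that Hsf1 is known to bind. RefSeq windows (GRCm38.p6) were at hand for 8 of the 10 genes, not for Hspa8 and Hsp90aa1. Elements of 3 units (GAANNTTCNNGAA or TTCNNGAANNTTC, either strand) were present for 3 of these 8 genes, Hsph1, Hspd1 and Hspe1. Over all 27025 genes with a window, the share was 0.662%. Hspd1 and Hspe1 lie head to head and share the same stretch, so that they count as 1 occurrence. Elements of 2 units (GAANNTTC or TTCNNGAA), which every element of 3 units contains, were present for 7 of the 8 genes, all but Dnajb1. Their share over all genes with a window was 17.0%. Capitals mark the letters of 1 match in each line.
Hspe1, plus strand of chr1:55088051-55088079, 3 units: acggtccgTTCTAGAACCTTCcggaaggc
Hsph1, minus strand of chr5:149636280-149636308, 3 units: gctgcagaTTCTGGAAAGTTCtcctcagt
Hspa1a, minus strand of chr17:34972242-34972271, 2 units: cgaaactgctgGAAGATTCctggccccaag
Hspa1b, minus strand of chr17:34959324-34959353, 2 units: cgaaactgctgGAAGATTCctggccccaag
Hspb1, plus strand of chr5:135887791-135887820, 2 units: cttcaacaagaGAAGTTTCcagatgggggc
Hspb1, plus strand of chr5:135887811-135887840, 2 units: agatgggggcaGAACCTTCctggccccgcc
Dnaja1, plus strand of chr4:40722333-40722362, 2 units: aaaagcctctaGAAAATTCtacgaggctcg
The stretches of Hspa1a and Hspa1b are the same letters at both positions. Hspb1 held 2 such stretches. For Hspe1 another match of 3 units overlapped the printed one. For Hsph1 the printed match started 15 or 36 bases after the gene start, depending on the window, and a further match of 2 units lay apart from it. A match is a description of the letters and was not tested as a binding site.

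The libraries held between 7696081 and 19062437 reads on genes. A single read corresponded to 9.80 to 24.4 units of the deposited value, RSEM reads per gene scaled to an upper quartile of 1000. Its median worth was 12.9 units in saline livers (9.80 to 17.5) and 18.4 in LNA29 livers (12.5 to 24.4). This worth follows the reads at the upper quartile, not depth alone. The median of reads on genes was 12011982 in saline livers (8217212 to 19062437) and 9123458 in LNA29 livers (7696081 to 15079236), so depth tended to differ between the groups, with overlap. The part of depth in the fold changes was not tested. Albumin accounted for 35.7% of the reads of saline replicate 49 and for 43.6% to 46.9% in the other 11 livers. Saline replicate 49 also stood apart in its scaling, with 100 reads at the upper quartile and 8217212 reads on genes. Saline replicates 51 and 53 had 99 and 102 reads at the upper quartile, with 17522197 and 19062437 reads on genes. The value without saline replicate 49 is therefore given for each of the 10 genes. Of 6 known miR-29 targets tested, 5 had a fitted value above 0 and 1 below, and 3 had a limma adjusted p under 0.05. Those 3, Sparc, Eln and Col3a1, were higher in every LNA29 liver than in any saline liver (log2 fold changes 1.51, 1.93 and 1.48, limma adjusted p = 4.62e-05, 0.0224 and 0.0438). When each liver was left out in turn, the adjusted p of Sparc stayed under 0.05 in 12 of 12 fits, that of Eln in 8 (not without saline replicates 43 and 51 or LNA29 replicates 50 and 54) and that of Col3a1 in 2 (without saline replicate 45 or LNA29 replicate 46), reaching 0.0784 for Eln and 0.126 for Col3a1. All 7 hepatocyte markers were tested, and no gene of the hepatocyte, stellate cell, endothelial, macrophage, bile duct, lymphocyte or blood lists had a limma adjusted p under 0.05, while 1 had an unadjusted p under 0.05. In whole liver, fewer cells of a type and less RNA per cell cannot be told apart.

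None of the 10 chaperone genes passed the test between LNA29 and saline livers over all genes. The smallest limma adjusted p was 0.428, for the small heat shock protein gene Hspb1, and the other 9 genes had adjusted p-values between 0.720 and 0.986. Of all 12486 genes tested, those averaging 10 or more, 0.160% had an adjusted p under 0.05. The fitted log2 fold change was above 0 for all 10 genes, as it was for 38.6% of the genes tested. The 10 fold changes had a median of 0.27, ranging from 0.13 for Hspa1a to 0.89 for Hspb1, and the median of all genes tested was -0.093. With each liver shifted to a common median all 10 stayed above 0, beside 43.9% of the genes tested. Hspa1a, which rested on at most 7.46 reads in a liver, turned below 0 in 4 of the 12 fits that left out a liver. Genes that are expressed together are not independent, so 10 genes on the same side do not count as 10 observations. The 2 groups overlapped for every one of the 10 genes, while they did not overlap for 0.985% of the genes tested.

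**Figure D1:**
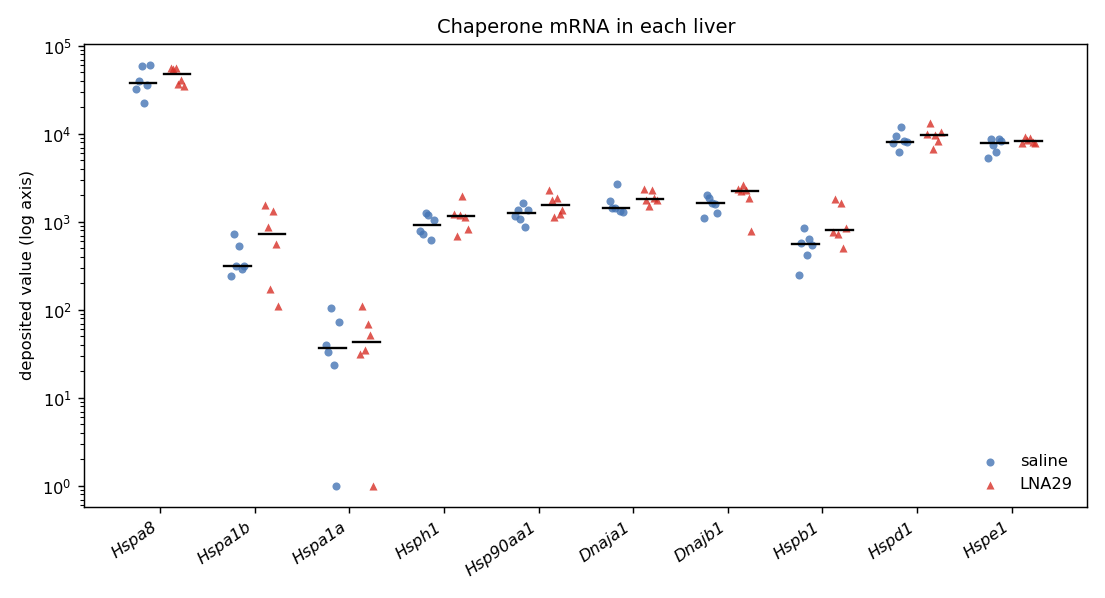
Deposited value of each of the 10 genes in each liver (log axis), with saline livers as circles, LNA29 livers as triangles and the group medians as lines. The LNA29 median lay above the saline median for every gene, and the 2 groups overlapped for every gene. Hspa1a values of 1 stand for no reads.

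**Figure D2:**
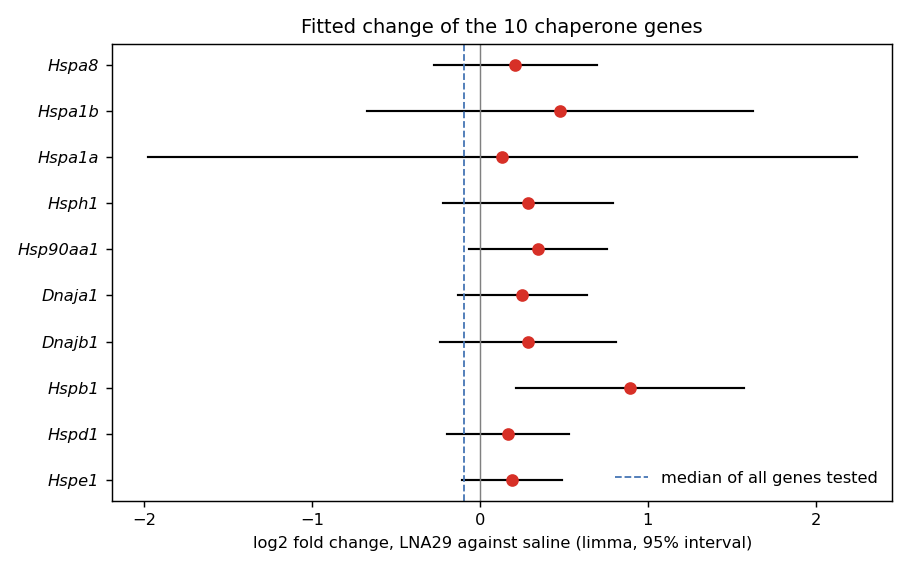
Fitted log2 fold change of each gene with its 95% interval (limma, 6 livers each), and the median of all genes tested as a dashed line at -0.093. Only the interval of Hspb1, from 0.22 to 1.57, lay above 0.

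Hspa8 encodes Hsc70, the constantly expressed HSP70 of the cytosol (chr9:40800984-40810087, GRCm38). Its values in saline livers ran from 22680 over a median of 37921 to 60637, and those in LNA29 livers from 34603 over 47523 to 56438. The highest and the lowest liver were both saline livers, replicates 53 and 49, and every LNA29 liver lay between them. The mean was 41733 ± 15006 in saline livers and 46586 ± 10140 in LNA29 livers (SD, n = 6 each), and the log2 fold change was 0.21 with a 95% interval from -0.27 to 0.69 (exact permutation test, p = 0.465). With saline replicate 49 left out, the fold change was 0.051 on the log2 scale.

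Hspa1a and Hspa1b are the heat-inducible HSP70 genes. They lie next to each other on chromosome 17 (chr17:34969190-34972156 and chr17:34956436-34959238), and their coding sequences are 99.6% identical, with 8 different bases among 1923. RSEM divided reads between such copies, and part reads appeared for Hspa1a in 9 of 12 livers and for Hspa1b in 11, so that neither value is certain on its own. Hspa1b ran from 241 over a median of 314 to 728 in saline livers, and from 110 over 724 to 1543 in LNA29 livers. The 3 highest livers were all LNA29 livers (replicates 44, 50 and 46), and so were the 2 lowest (replicates 54 and 48). The mean was 404 ± 188 in saline and 769 ± 595 in LNA29 livers (SD, n = 6 each), a ratio of 1.90. The log2 fold change of 0.48 had an interval from -0.67 to 1.63 (exact permutation test, p = 0.487). Without LNA29 replicate 54 it was 0.92, without LNA29 replicates 44 and 50 it was 0.16 and 0.20, and without saline replicate 49 it was 0.58. Hspa1a had between 0 and 7.46 reads per liver and no reads in saline replicate 51 and LNA29 replicate 54. Its medians were 36.9 and 43.3 in saline and LNA29 livers, and its log2 fold change of 0.13 had an interval from -1.98 to 2.25 (exact permutation test, p = 0.866). Omitting saline replicate 49 gave 0.087 for Hspa1a. For the sum of both genes the values ran from 281 to 762 in saline livers and from 110 to 1574 in LNA29 livers, with medians of 403 and 805 (log2 fold change 0.41, exact permutation test, p = 0.548).

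Hsph1 (chr5:149614287-149636376) encodes a large HSP70 relative that acts as a nucleotide exchange factor for HSP70. Its values ran from 626 over 918 to 1263 in saline livers and from 683 over 1170 to 1946 in LNA29 livers. All LNA29 livers except replicate 50 fell within the saline range. The log2 fold change of 0.29 had an interval from -0.22 to 0.79 (exact permutation test, p = 0.299). It was 0.13 without LNA29 replicate 50 and 0.18 without saline replicate 51, and was 0.36 without saline replicate 49.

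Dnaja1 and Dnajb1 encode J-domain proteins, which bring unfolded proteins to HSP70 and stimulate its ATPase. Dnaja1 (chr4:40722150-40737149) ran from 1298 over a median of 1442 to 2713 in saline livers and from 1529 over 1824 to 2339 in LNA29 livers. All 6 LNA29 livers lay above the saline median and 4 saline livers lay below every LNA29 liver, but the highest value of all, 2713, was that of saline replicate 49. Over all livers the log2 fold change was 0.25, with an interval from -0.13 to 0.64 (exact permutation test, p = 0.208). When saline replicate 49 was left out this came to 0.40, with an exact permutation p of 0.0130 and an adjusted p of 0.427 in limma. Its values stood for part reads in all 12 livers.

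Dnajb1 (chr8:83608193-83612653) is the heat-inducible J-domain partner of HSP70. Its values ran from 1109 over a median of 1628 to 2016 in saline livers and from 795 over 2274 to 2623 in LNA29 livers. LNA29 replicates 44, 46, 48 and 50 lay above every saline liver, and LNA29 replicate 54 lay below every other liver, with 58 reads. The mean was 1589 ± 346 in saline and 2025 ± 652 in LNA29 livers (SD, n = 6 each), and the log2 fold change of 0.29 had an interval from -0.24 to 0.81 (exact permutation test, p = 0.357). Without LNA29 replicate 54 it was 0.54 (exact permutation test, p = 0.0130, limma adjusted p = 0.350), and without saline replicate 49 the value was 0.30.

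Hsp90aa1 (chr12:110690605-110702728) encodes the stress-responsive form of cytosolic HSP90, a chaperone of kinases and steroid hormone receptors. Its values ran from 879 over a median of 1261 to 1660 in saline livers and from 1132 over 1556 to 2288 in LNA29 livers. LNA29 replicates 44, 46 and 50 lay above every saline liver, and the other 3 LNA29 livers lay within the saline range. The log2 fold change of 0.35 had an interval from -0.06 to 0.76 (exact permutation test, p = 0.121). Saline replicate 49 was the highest saline liver, and leaving it out gave 0.43 (exact permutation p = 0.0779).

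Hspb1 (chr5:135887919-135889563) encodes Hsp25/27, a small heat shock protein that binds unfolded proteins and actin filaments, and it had the largest difference of the 10 genes. Its values ran from 250 over a median of 560 to 860 in saline livers and from 509 over 813 to 1829 in LNA29 livers, resting on 16 to 93 reads. LNA29 replicates 46, 50 and 54 lay above every saline liver, the first of these at 1829 and the second at 1661, and saline replicates 43 and 49 lay below every LNA29 liver. The mean was 548 ± 205 in saline and 1060 ± 546 in LNA29 livers (SD, n = 6 each), a ratio of 1.94. The log2 fold change was 0.89 with a standard error of 0.32 (exact permutation test, p = 0.0390). It was the single gene of the 10 with an unadjusted limma p under 0.05, a threshold that 7.91% of the genes tested passed, and 1.95% in the higher direction. In limma, fitted across all genes, its adjusted p was 0.428. The permutation p rose above 0.05 in 8 of the 12 fits that left out a liver, with fold changes between 0.69 (without saline replicate 43) and 1.08 (without LNA29 replicate 52). Omitting saline replicate 49 gave 0.84, with an exact permutation p of 0.0844.

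Hspd1 and Hspe1 encode Hsp60 and Hsp10, the ring and the lid of the mitochondrial folding chamber. They lie head to head on chromosome 1 (chr1:55077835-55088243 and chr1:55088132-55091307). Hspd1 ran from 6211 over a median of 8152 to 12030 in saline livers and from 6792 over 9804 to 13171 in LNA29 livers (log2 fold change 0.17, interval from -0.20 to 0.53, exact permutation test, p = 0.383). Hspe1 ran from 5297 over 7912 to 8794 in saline livers and from 7788 over 8292 to 9122 in LNA29 livers (log2 fold change 0.19, interval from -0.11 to 0.49, exact permutation test, p = 0.184). Leaving out saline replicate 49 gave 0.27 for Hspd1 and 0.15 for Hspe1. The lowest values were 0.075 for Hspd1 without LNA29 replicate 46, next to 0.077 without saline replicate 47, and 0.099 for Hspe1 without saline replicate 43. Hspe1 had the narrowest spread of the 10 genes, and 3 saline livers lay below every LNA29 liver.

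Levels were compared between genes as the deposited value per kilobase of the longest annotated transcript. Hspa8 stood first, with 17432 ± 6268 per kilobase in saline livers, followed by Hspe1 with 9647 ± 1854 and Hspd1 with 3579 ± 808 (SD, n = 6 each). The ranges of Hspa8 and Hspe1 over the 12 livers overlapped, and so did those of each neighbouring pair from Hspb1 over Dnajb1, Hsp90aa1, Dnaja1 and Hsph1 to Hspa1b. Gaps without overlap lay between Hspe1 and Hspd1, between Hspd1 and Hspb1, and between Hspa1b and Hspa1a. The last gap was narrow, from a lowest Hspa1b value of 39.1 to a highest Hspa1a value of 37.1 per kilobase. Reads were divided between these near-identical copies, so this gap is uncertain. Hspa1a stood last, at 15.5 ± 12.6 per kilobase in saline livers. Per kilobase of coding sequence, Hspe1 came before Hspa8, and Dnaja1, whose longest transcript has a 3′ UTR of 4203 bases, moved from place 7 to place 5.

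**Figure D3:**
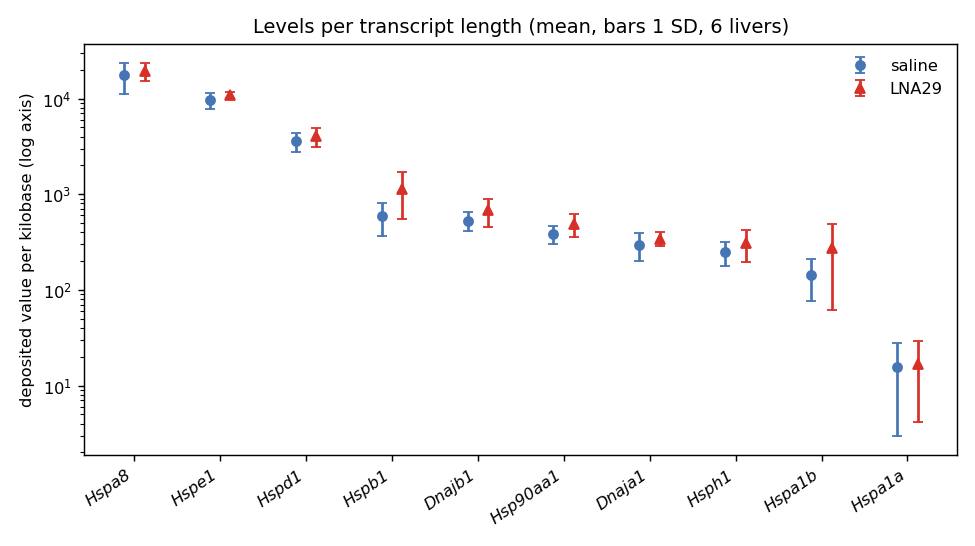
Mean deposited value per kilobase of transcript for each gene (log axis), with bars of 1 SD over 6 livers of each group. Hspa8, Hspe1 and Hspd1 lay above the other 7 genes, and Hspa1a lay lowest.

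Within a group, the inducible HSP70 genes varied most. The pooled standard deviation of log2 values between livers of the same group was 1.19 for Hspa1b, at percentile 98.0 among the 8990 genes averaging 100 or more, and 0.67 for Hspb1, at percentile 83.7. It was 0.22 for Hspe1, at percentile 9.11, and the median of those 8990 genes was 0.42. LNA29 replicate 50 lay above its group mean for 9 of the 10 genes and LNA29 replicate 54 for 1, Hspd1, and saline replicate 43 lay above its group mean for 2 genes. The mean deviation of the 8 cytosolic genes was 0.58 in LNA29 replicate 50 and -1.09 in LNA29 replicate 54, and without Hspa1a it was 0.50 and -0.68.

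**Figure D4:**
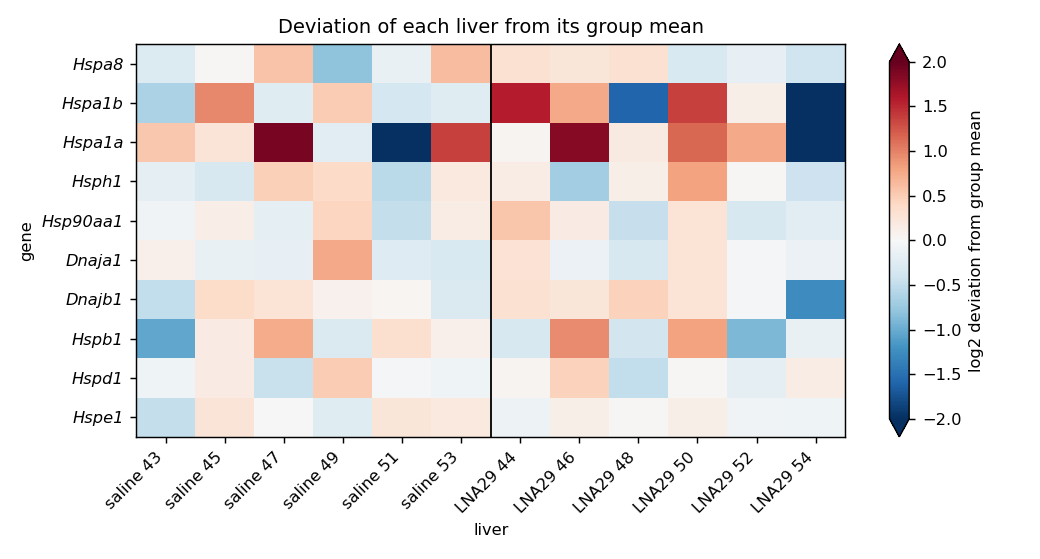
Deviation of the log2 value of each gene in each liver from the mean of its own group, in colour from -2 (blue) to 2 (red), with saline livers left and LNA29 livers right of the line. LNA29 replicate 54 lay below its group mean for 9 of the 10 genes, and Hspa1a and Hspa1b had the strongest colours.

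The deviations of 45 pairs of genes were compared over the 12 livers, which share library, depth and scaling within each liver. Pearson's r was positive for 33 pairs and negative for 12, with a median of 0.28. No pair had an adjusted p under 0.05, and 5 had an unadjusted permutation p under 0.05. The highest was that of Hspa1b and Hsp90aa1 (r = 0.73, permutation p = 0.0157, adjusted p = 0.235). Spearman's rho for this pair was 0.75 (permutation p = 0.0143, adjusted p = 0.229), and r was 0.72 without the 2 livers farthest from the median of Hspa1b. The lowest was that of Hspa8 and Dnaja1 (r = -0.65, permutation p = 0.0402, adjusted p = 0.383). Its rho was -0.57 (permutation p = 0.0681, adjusted p = 0.438), and r was -0.24 without saline replicates 49 and 53, so this relation rests on those livers.

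Among 8981 other genes averaging 100 or more, those whose deviations followed the mean of the 8 cytosolic genes most closely were Trim65 (r = 0.81), Ccdc117 (0.81), 2410004B18Rik (0.79), Prpf3 (0.78) and Slc25a12 (0.78), given as a description over 12 livers. None of these 5 belongs to the chaperone lists. The mean of the 8 genes includes Hspa1a, which had a pooled standard deviation of 2.04 and no reads in saline replicate 51 and LNA29 replicate 54. These correlations were not computed without Hspa1a. Those that followed the mean of Hspd1 and Hspe1 were Cntnap1 (r = 0.92), Sri (0.90), Ei24 (0.88), Thra (0.87) and Eif2b3 (0.87). Such values are the extremes among 8981 correlations.

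Other chaperone genes were described by lists. Of 38 cytosolic HSP70 and HSP90 relatives and co-chaperones, 27 had a fitted value above 0 and 11 below, and none had an adjusted p under 0.05, with a median log2 fold change of 0.09. The ends of this list among genes averaging 100 or more were Dnajb5, a J-domain gene, at 0.83 (exact permutation test, p = 0.141) and Bag1, a nucleotide exchange factor, at -0.30 (exact permutation test, p = 0.152). Hsp90ab1, the constant form of HSP90, was named after its values were seen as the partner of Hsp90aa1. It ran from 39625 over 44638 to 51193 in saline livers and from 46736 over 57257 to 62286 in LNA29 livers (log2 fold change 0.32, exact permutation test, p = 0.00866, limma adjusted p = 0.608). Also named after the values were seen, the Hsf1 targets Bag3 and Stip1 had log2 fold changes of 0.10 and 0.15 (exact permutation tests, p = 0.630 and 0.474).

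Among the 6 tested small heat shock protein genes, 2 were above 0 and 4 below, with a median of -0.12. Hspb6, expressed in muscle and other tissues, stood at -0.57 with values of 859 ± 191 in saline and 577 ± 137 in LNA29 livers (SD, n = 6 each, exact permutation test, p = 0.0173, limma adjusted p = 0.413), and Hspb8 at 0.12 (exact permutation test, p = 0.519). Of 13 mitochondrial chaperones and proteases, 4 were above 0 and 9 below, with a median of -0.14. Trap1, the mitochondrial HSP90, stood at -0.27 (exact permutation test, p = 0.0152, limma adjusted p = 0.630), and Clpx, the unfoldase of the mitochondrial Clp protease, at 0.35 (exact permutation test, p = 0.223). Hspa9, the mitochondrial HSP70 and named after its values were seen, stood at 0.12 (exact permutation test, p = 0.400).

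Of 13 subunits of the CCT chaperonin, which folds actin and tubulin, and of prefoldin, 11 were above 0, with a median of 0.11. Cct8 stood at 0.35 (exact permutation test, p = 0.0260, limma adjusted p = 0.567) and Tcp1 at 0.06 (exact permutation test, p = 0.494). Of 14 ER chaperones 12 were above 0, with a median of 0.07. Hspa5, which encodes BiP, stood at 0.36 and Pdia3, a disulfide isomerase gene, at -0.13 (exact permutation tests, p = 0.297 and 0.524). Among the 4 tested heat shock factors and regulators, Hsf2 stood at 0.42 and Hsbp1, which encodes a binding partner of Hsf1, at -0.20 (exact permutation tests, p = 0.216 and 0.262). Hsf1 itself, named after its values were seen, had 764 ± 140 in saline and 721 ± 97.1 in LNA29 livers (SD, n = 6 each, exact permutation test, p = 0.574). None of these 6 lists held a gene with a limma adjusted p under 0.05 or without overlap between the groups. An unadjusted limma p under 0.05 was found for 1 gene each of the first 4 lists (Hsp90ab1, Hspb6, Trap1 and Cct8) and for no ER chaperone or heat shock factor, 4.55% of the 88 genes of these lists beside 7.91% of all genes tested.

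**Figure D5:**
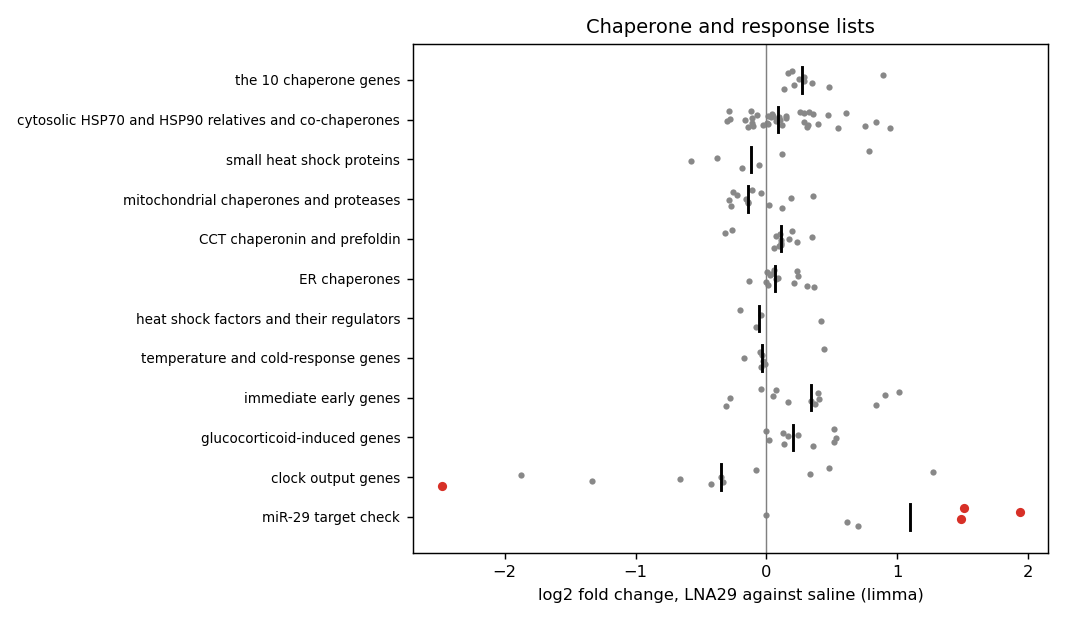
Log2 fold change of each tested gene (grey points; red where the limma adjusted p is under 0.05) in the 10 chaperone genes and 11 other lists, with the list median as a line. No red point lies in the chaperone lists. The median of the 10 genes was 0.27, and those of the other lists ranged from -0.35 for clock output genes to 1.09 for the miR-29 target check.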

How the data were processed

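Polyadenylated liver RNA was sequenced as single reads. The authors mapped them with MapSplice2 and estimated reads per gene with RSEM (versions not given in the sources used here; build mm9 per the submitters' processing notes), and deposited a signal value per gene and liver, the reads divided by the upper quartile of the expressed genes of that liver and multiplied by 1000. A gene without reads was set to 1. In each liver 92.2% to 93.9% of the other values were multiples of a single step within 0.02 of a whole number, from which reads were estimated. The table also holds 4 columns of the authors' means, fold changes and p-values and 3 columns with no name, none of which entered any step.

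The 12486 genes averaging 10 or more were fitted on log2(value + 1) in limma 3.58.1 under R 4.3.3, with a mean-variance trend. P-values were adjusted by Benjamini-Hochberg and called under 0.05. The added 1 is small beside the 9.80 to 24.4 units that 1 read was worth. For Hspa1a the log2 fold change was 0.133 with it and 0.137 with 0.1 added instead. Livers without reads stand far from the others on this scale and widen the spread of low genes, as for Hspa1a with a pooled standard deviation of 2.04. For single genes, all 924 divisions of the 12 livers were enumerated in an exact permutation test (two-sided), whose smallest p is 0.00216. Correlations of deviations from group means used 100000 permutations within groups. The fit was run on simulated data, whose changes were larger than any fitted for the 10 genes. That run cannot show how often changes of their size would be called. Python 3.11.15, numpy 2.4.6, scipy 1.17.1, pandas 2.3.3 and biopython were used for the other steps. Coordinates and transcripts are from GRCm38, not from mm9.

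The members and lists were chosen with earlier results of these data known. Named are all 10 genes. From the lists, genes with an adjusted p under 0.05, genes without overlap, and the highest and the lowest fold change among genes averaging 100 or more are named. The 5 genes most correlated with each of the cytosolic and the mitochondrial members are also named. Other named genes are marked in the text. Alternatives were pseudocounts, filters, a common median, array weights, values beyond 1.5 SD left out, each liver left out and, chosen after seeing the data, a transcript length covariate.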

Additional observations from a re-analysis of the deposited data

Results flagged for a closer look

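A liver that stood apart from the other 5 of its group (by Dixon's critical value) appeared in 4 of 24 groups of 6 examined. Chance gives about 1 in 20 groups, or 1.2, for independent groups of normal values. The groups here share the same livers, and genes without reads were set to 1, so these counts cannot be compared strictly. Saline replicate 51 and LNA29 replicate 54 held no reads of Hspa1a, a log2 value of 1.0 in each, against 4.61 to 6.73 in the remaining saline livers and 5.03 to 6.79 in the remaining LNA29 livers. LNA29 replicate 54 was also far below the others for Dnajb1, with a log2 value of 9.64 against 10.85 to 11.36. Albumin made up 35.7% of the reads of saline replicate 49, against 43.6% to 46.9% in the other 5 saline livers. No cause was tested.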

How the results depend on the processing

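No chaperone gene of the 10 had an adjusted p under 0.05 in any of the 20 alternatives. The smallest was 0.105, for Dnajb1 with values beyond 1.5 SD left out. The median of the 10 fold changes stayed between 0.20 and 0.46. The number with an unadjusted p under 0.05, 1 over all livers, was 2 with a common median and 3 with array weights, with values beyond 1.5 SD left out or with the transcript length covariate. It was 1 to 3 when a liver was left out, with 3 without saline replicate 49 and 2 without LNA29 replicate 48 or 54. Of 199 fold changes under an alternative 4 turned, all for Hspa1a: -0.63 without saline replicate 51, and -0.23, -0.10 and -0.02 without LNA29 replicates 46, 50 and 52. The highest Hspa1a value was 0.93, without LNA29 replicate 54. Hspa1a was not tested with a mean of at least 100.

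In the other lists, cell type lists aside, 4 genes had an adjusted p under 0.05 over all livers. These were the miR-29 targets Sparc, Eln and Col3a1 and the clock output gene Dbp, and none came from a chaperone list. The count over these lists was 10 with values beyond 1.5 SD left out. It was 1 to 4 when a liver was left out, with 1 without saline replicate 43 or 51 or without LNA29 replicate 50 or 54. Over all genes the 20 calls became 10 with a common median, 58 with array weights, 217 with values beyond 1.5 SD left out and 103 with the covariate. They became 1 to 29 when a liver was left out, with 1 without saline replicate 43 or LNA29 replicate 50 or 54. The cause was not tested. No paired analysis was possible because the groups share no replicate number. Count tests were not run, since the deposited values are scaled and genes without reads were set to 1. Hspa1a rested on the fewest reads of the 10 genes, 0 to 7.46 in a liver, and reads were divided between it and its near-identical copy Hspa1b. The livers without reads of Hspa1a, saline replicate 51 and LNA29 replicate 54, held 17522197 and 12449197 reads on genes.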

Other observations

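Lists of responses that can accompany heat shock genes were also described. Of 7 temperature and cold-response genes 1 was above 0 and none had an adjusted p under 0.05, with a median of -0.04. Hmox1, a stress-induced haem oxygenase gene, stood at 0.44 and Srsf5 at -0.17 (exact permutation tests, p = 0.290 and 0.729). The cold-shock genes Cirbp and Rbm3, named after their values were seen, had log2 fold changes of -0.04 and -0.01 (exact permutation tests, p = 0.866 and 0.978). Of 13 immediate early genes 10 were above 0, with a median of 0.34, and none had an unadjusted limma p under 0.05. Btg2, an antiproliferative gene, stood at 1.01 and Nr4a1, an orphan receptor gene, at -0.04 (exact permutation tests, p = 0.110 and 0.952). Of 10 glucocorticoid-induced genes 9 were above 0, with a median of 0.20, Tat at 0.53 and Klf9 at -0.0038 (exact permutation tests, p = 0.193 and 0.994).

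Of 11 clock output genes 3 were above 0, beside 38.6% of all genes tested, with a median of -0.35. An unadjusted limma p under 0.05 was found for 4 of the 11, 1 higher and 3 lower, beside 7.91% of all genes tested. Dbp, a transcription factor under direct clock control, was lower in every LNA29 liver than in any saline liver. The groups did not overlap for 0.985% of the genes tested. Dbp had 190 ± 112 in saline and 29.1 ± 9.95 in LNA29 livers (SD, n = 6 each, limma adjusted p = 0.0468), resting on 1.12 to 22.9 reads. Its LNA29 values ran from 15.3 to 41.1, where 1 read was worth 12.5 to 24.4 units, so they stood for very few reads. The adjusted p of Dbp stayed under 0.05 in 1 of the 12 fits that left out a liver, the one without saline replicate 45, and reached 0.171 in the others. Npas2, a partner of the clock activator Bmal1, stood at 1.27 (exact permutation test, p = 0.0173, limma adjusted p = 0.265). The clock repressor gene Nr1d1 and the Dbp relative Tef, named after their values were seen, stood at -1.33 and -0.42 (exact permutation tests, p = 0.0108 and 0.0411, limma adjusted p = 0.139 and 0.552). In the 7 cell type lists, Marco, a macrophage scavenger receptor gene, was the gene with an unadjusted limma p under 0.05, at 1.08 (exact permutation test, p = 0.0368, limma adjusted p = 0.391), while the other 6 tested genes of the macrophage list were below 0, the list median was -0.19 and the summed level ran from 7484 to 11343 in saline and from 6571 to 15740 in LNA29 livers. The other ends of the cell type lists were Apoa1 at 0.62 and Ttr at -0.34 (hepatocyte), Lrat at 0.43 and Acta2 at -0.37 (stellate cell), Pecam1 at 0.14 and Kdr at -0.30 (endothelial), Vsig4 at -0.52 (macrophage), Sox9 at 0.44 and Spp1 at -0.38 (bile duct), Ptprc at -0.32 and Cd79a at -0.66 (lymphocyte), and Hbb-b1 at 0.47 and Hba-a2 at -0.02 (blood), with exact permutation p-values from 0.0693 for Spp1 to 0.974 for Hba-a2. The lowest of the named miR-29 targets, Col1a2, stood at 0.62 (exact permutation test, p = 0.0433, limma adjusted p = 0.513). Of the 6 miR-29 targets tested, 1 that is not named had a fitted value below 0. The part of the cell type lists in the values of the chaperone genes was not tested.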
